A study of Mus musculus with 6 samples.

Results

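Cathepsins are proteases that work mainly in the acid interior of lysosomes. Cystatin C, encoded by Cst3, is a secreted inhibitor of many of the cysteine proteases among them. The genes described here are 9 cathepsin genes (Ctsb, Ctsl, Ctss, Ctsk, Ctsh, Ctsc, Ctsz, Ctsd and Ctse) and Cst3. They were chosen as a named set, and every probe set whose platform annotation gave 1 of these 10 symbols and no other was taken. That left 21 probe sets of 45037, and 20 of the 21 passed the filter on dim signals that 27022 probe sets passed. The arrays measured total RNA of primary mouse microglial cultures, the resident macrophages of the brain grown in a dish. The groups were 3 arrays of Dap12-deficient cultures, labelled as knockout for Dap12, and 3 arrays of wild-type cultures. Only Dap12-deficient array 3 and wild-type array 2 have a single number in the title. The other titles join a pair of numbers, which the labels do not explain. Dap12, the product of Tyrobp, is a membrane adaptor through which Trem2 and other myeloid receptors signal to the kinase Syk. The sources used here give neither the allele, the strain nor the age of the animals. They do not say whether an array held 1 culture or several, or whether the cultures were made from separate animals. P-values therefore cover only the spread among arrays, which may be technical.

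Most cathepsins are made as inactive precursors, carried to lysosomes by mannose 6-phosphate receptors and activated there by cleavage. Microglia are rich in them, since they digest engulfed myelin, synapses and dead cells. Cathepsins B, L, S, K, H, C and Z are cysteine proteases of the papain family. Cystatin C blocks many of this family, but not all alike. Cathepsins D and E are aspartic proteases, which it does not block. Cystatin C is secreted by microglia, astrocytes and other brain cells.

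Promoter sequences of RefSeq (build GRCm38.p6, 250 bases before to 50 after the start of the gene) matched 7 of the 10 genes. They are shown for 5 of them, and those of Ctsc and Ctsz are left out. Ctsd, Ctsl and Ctss followed nearly the same profile over the arrays, as did Ctsc, while Cst3 and Ctsk did not. A link between promoter and profile was not tested. Each motif was searched on both strands. The motif CACGTG, which reads alike on both strands, is the core of the element bound by the lysosomal regulator TFEB, and 7.15% of 32851 promoters hold it. The motif GAGGAAG is a core of sites bound by ETS factors such as the myeloid factor PU.1, and 13.6% of the promoters hold it. In the lines that follow capitals mark these motifs, and lower case all other bases, 5′ to 3′ on the strand of the gene.
Ctsd, chr7:142387778-142388077, minus strand: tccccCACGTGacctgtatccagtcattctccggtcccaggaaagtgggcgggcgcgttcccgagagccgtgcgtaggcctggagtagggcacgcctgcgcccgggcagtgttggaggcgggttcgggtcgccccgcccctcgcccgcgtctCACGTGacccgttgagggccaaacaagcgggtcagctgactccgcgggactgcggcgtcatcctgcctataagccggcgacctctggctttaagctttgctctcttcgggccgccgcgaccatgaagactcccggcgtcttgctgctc
Ctsl, chr13:64370471-64370770, minus strand: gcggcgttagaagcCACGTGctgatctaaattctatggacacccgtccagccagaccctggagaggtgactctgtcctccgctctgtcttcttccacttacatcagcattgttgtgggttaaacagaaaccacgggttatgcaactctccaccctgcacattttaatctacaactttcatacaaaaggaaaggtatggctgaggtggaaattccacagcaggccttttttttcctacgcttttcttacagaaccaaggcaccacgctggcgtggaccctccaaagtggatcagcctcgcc
Ctss, chr3:95526536-95526835, plus strand: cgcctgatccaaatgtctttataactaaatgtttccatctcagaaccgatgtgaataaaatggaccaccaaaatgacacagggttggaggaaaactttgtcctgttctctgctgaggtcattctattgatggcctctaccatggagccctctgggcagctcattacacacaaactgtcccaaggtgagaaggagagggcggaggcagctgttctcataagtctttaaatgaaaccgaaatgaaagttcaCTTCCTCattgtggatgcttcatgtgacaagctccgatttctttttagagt
Ctsk, chr3:95498960-95499259, plus strand: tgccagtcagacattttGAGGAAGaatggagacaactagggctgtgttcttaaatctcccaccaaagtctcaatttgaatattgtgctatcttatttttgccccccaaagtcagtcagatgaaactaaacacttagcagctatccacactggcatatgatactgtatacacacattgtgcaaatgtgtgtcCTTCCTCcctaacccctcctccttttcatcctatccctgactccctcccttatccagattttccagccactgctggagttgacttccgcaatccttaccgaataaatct
Cst3, chr2:148875463-148875762, minus strand: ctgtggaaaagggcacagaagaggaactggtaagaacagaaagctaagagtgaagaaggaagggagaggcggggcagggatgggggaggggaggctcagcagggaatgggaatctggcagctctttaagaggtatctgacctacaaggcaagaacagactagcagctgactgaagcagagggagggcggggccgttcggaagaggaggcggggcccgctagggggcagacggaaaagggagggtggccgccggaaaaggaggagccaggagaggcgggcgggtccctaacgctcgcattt
The Ctsd promoter held CACGTG in 2 places and that of Ctsl in 1, and neither window held the ETS motif. The ETS motif stood once in Ctss and in 2 places each in Ctsk and Ctsc. Windows of Cst3 and Ctsz held neither. Ctsk and Ctss are neighbours on chromosome 3 with no protein-coding gene between them, and both hold the ETS motif. These matches describe letters only.

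No cathepsin or cystatin C probe set differed between Dap12-deficient and wild-type cultures by enough to pass the test. Of 20 member probe sets tested, 0 had a limma adjusted p under 0.05, and the share of all tested probe sets that did was 0.0074%. Signals are linear intensities that the authors scaled to a common mean per array, and log2 differences were taken after adding 16 to each signal. At an unadjusted p under 0.05 there were 2 member probe sets of 20, against 10.7% of all probe sets tested. The groups did not overlap for 2 of the 20, against 16.5% of all. Both shares lay near or under the background with signals as deposited. With each array scaled to the same median, 6 of the 20 had an unadjusted limma p under 0.05, against 15.1% of all. Without Dap12-deficient replicate 2 there were 5, against 14.0% of all. In the other alternatives there were 0 to 2. With each gene taken at its brightest probe set, 9 genes had log2 differences below 0 and 1 above, with a median of -0.08. Of all 12875 genes tested, 7055 lay below 0, and the median of all was -0.03. Over the 20 probe sets 13 lay below 0, as did 46.6% of all tested. That count was 6 without Dap12-deficient replicate 3 and 7 without wild-type replicate 2. Scaling each array to the same median signal moved the median of all tested probe sets to -0.16, against 0.03 with signals as deposited, and 18 of the 20 member probe sets then lay below 0, against 68% of all. With quantile normalization 12 of 20 lay below 0, against 53% of all.

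**Figure D1:**
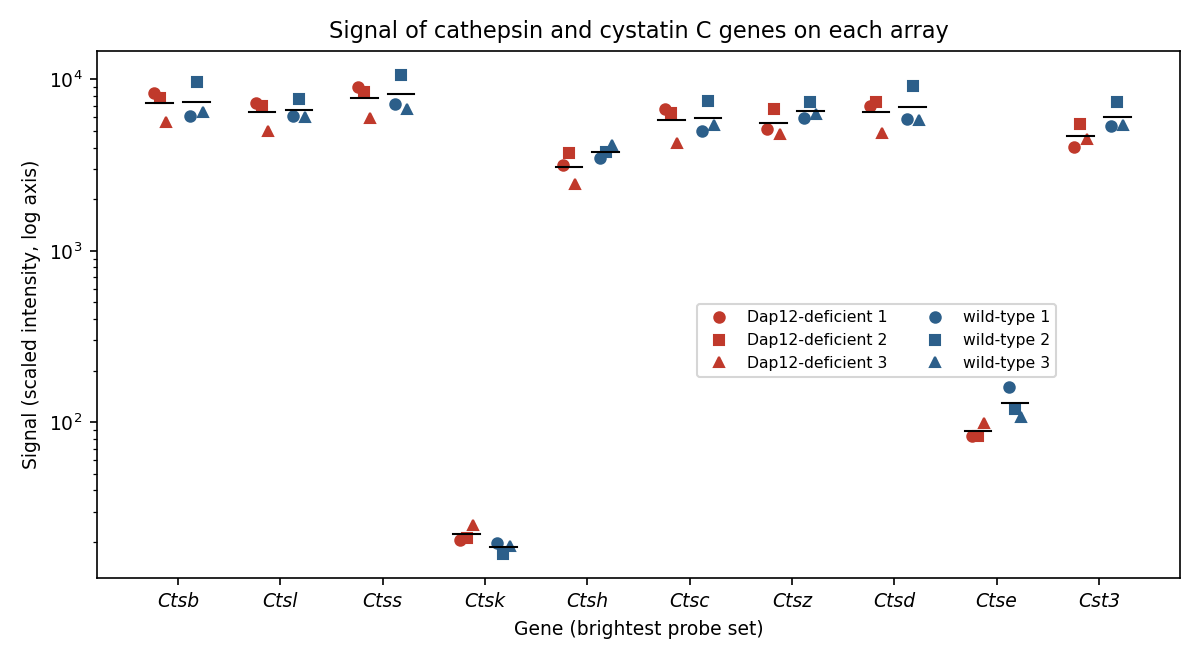
Signal (scaled intensity, log axis) of the brightest probe set of each gene on the 3 Dap12-deficient and the 3 wild-type arrays, with bars at the group means. The groups overlap for 8 of the 10 genes, and for Ctse and Ctsk they do not.

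Ctsb, Ctsl and Ctss encode endopeptidases of the lysosome, and cathepsin S also cleaves the invariant chain of MHC class II. Ctss gave 9080, 8395 and 5992 on Dap12-deficient arrays 1, 2 and 3, against 7197, 10651 and 6716 on wild-type arrays 1, 2 and 3. Its log2 difference was -0.06 (SE 0.22, 95% interval -0.55 to 0.44, limma adjusted p = 0.946). The highest and the lowest signal stood in opposite groups, on wild-type array 2 and on Dap12-deficient array 3, and the other arrays lay between them. Ctsb gave 8324, 7750 and 5664 in Dap12-deficient cultures, against 6087, 9661 and 6427 in wild-type cultures, and a log2 difference of -0.02 (SE 0.22, 95% interval -0.50 to 0.47). Ctsl gave 7294, 7001 and 4985 in Dap12-deficient cultures, against 6143, 7726 and 6006 in wild-type cultures, and a log2 difference of -0.05 (SE 0.19, 95% interval -0.48 to 0.38). In both genes wild-type array 2 was again the highest and Dap12-deficient array 3 the lowest, and Dap12-deficient arrays 1 and 2 lay among the wild-type arrays. The intervals leave room for a change of about 0.5 on the log2 scale in either direction.

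Other probe sets of Ctsb and Ctsl split by brightness. The 3 next brightest of Ctsb had log2 differences of 0.05, -0.07 and 0.03, close to that of the brightest. They and the brightest come from 1 sequence record in the platform annotation, so they are not independent measures. The dimmest probe set of Ctsb, made from another record, gave 319, 159 and 124 in Dap12-deficient cultures, against 151, 107 and 59.5 in wild-type cultures. Its log2 difference was 0.80 (SE 0.36, unadjusted p = 0.0471, limma adjusted p = 0.463), with all 3 Dap12-deficient arrays above the wild-type mean but wild-type array 1 above Dap12-deficient array 3. The difference was 0.44 without Dap12-deficient replicate 1 and 0.50 without wild-type replicate 3. A dim second probe set of Ctsl gave 149, 131 and 226 in Dap12-deficient cultures, against 141, 72.2 and 116 in wild-type cultures, and a log2 difference of 0.56 (SE 0.27, adjusted p = 0.502). It was 0.34 without Dap12-deficient replicate 3 and 0.32 without wild-type replicate 2. Which transcripts these dim probe sets bind was not tested, and the brighter probe sets of the same genes did not show their differences.

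Ctsk, known for digesting bone collagen in osteoclasts, was dim. Its probe set gave 20.5, 21.0 and 25.0 in Dap12-deficient cultures, against 19.8, 17.0 and 19.0 in wild-type cultures. All Dap12-deficient arrays lay above all wild-type arrays, by less than 1 unit between the nearest arrays. The fitted log2 difference was 0.14 (SE 0.18, limma adjusted p = 0.803), and it was -0.0031 once each array was scaled to the same median signal. Its rank on the arrays, counted from 1 for the brightest of 45037 probe sets, lay between 18175 and 20711. Of 8 genes of osteoclast markers, 6 were tested and 0 passed. Acp5, the tartrate-resistant acid phosphatase, gave 19.7, 20.5 and 33.6 in Dap12-deficient cultures, against 12.97, 6.60 and 16.3 in wild-type cultures, a log2 difference of 0.54 (SE 0.22, adjusted p = 0.423). Oscar, an osteoclast receptor, had 0.34, and Atp6v0d2, a subunit of the proton pump, -0.44. Detection calls were not used here, so whether signals this low stand above background was not determined.

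Ctsh, Ctsc and Ctsz encode exopeptidases, which trim proteins from their ends. Cathepsin H is an aminopeptidase, cathepsin C removes dipeptides from the amino end and activates granule proteases, and cathepsin Z is a carboxypeptidase. Ctsc gave 6692, 6374 and 4276 in Dap12-deficient cultures, against 4998, 7432 and 5418 in wild-type cultures, a log2 difference of -0.05 (SE 0.22, 95% interval -0.54 to 0.44). Its array profile was that of Ctsb, Ctsl and Ctss, with the groups overlapping. Both dim probe sets of Ctsc had small log2 differences too, 0.20 (SE 0.25) and 0.09 (SE 0.25). Of 7 granule proteases that cathepsin C can activate, 0 passed the filter on dim signals, and the highest of their signals on any array was 16.7.

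Ctsh and Ctsz had lower means in Dap12-deficient cultures by every probe set, within the spread. The brightest probe set of Ctsz gave 5143, 6764 and 4794 in Dap12-deficient cultures, against 5956, 7383 and 6305 in wild-type cultures. Dap12-deficient arrays 1 and 3 lay below all wild-type arrays, and array 2 lay among them. The log2 difference was -0.24 (SE 0.18, 95% interval -0.65 to 0.16, limma adjusted p = 0.656). It was -0.39 without Dap12-deficient replicate 2, -0.14 without replicate 3 and -0.15 without wild-type replicate 2. The other probe sets of Ctsz, which come from the same sequence record, had log2 differences of -0.38 (SE 0.18, adjusted p = 0.502) and -0.38 (SE 0.19, adjusted p = 0.509). The brightest probe set of Ctsh gave 3146, 3699 and 2440.1 in Dap12-deficient cultures, against 3490, 3756 and 4140.2 in wild-type cultures. It was lowest on Dap12-deficient arrays 3 and 1, while array 2 stood among the wild-type arrays. The log2 difference was -0.31 (SE 0.19, 95% interval -0.73 to 0.11, adjusted p = 0.594), and it was -0.15 without Dap12-deficient replicate 3. The second probe set of Ctsh had a log2 difference of -0.16 (SE 0.21).

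**Figure D2:**
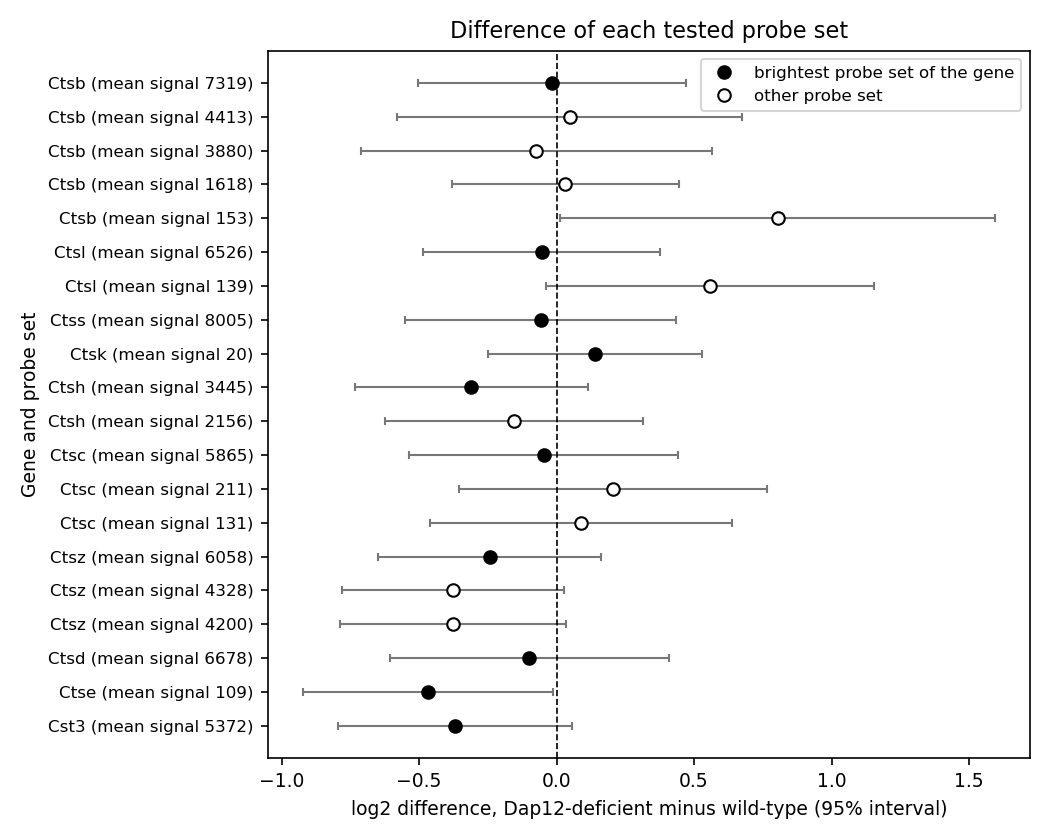
Difference of each of the 20 tested probe sets as log2(signal + 16), Dap12-deficient minus wild-type, with 95% intervals from limma. Probe sets of a gene are ordered by mean signal, and the intervals of a dim Ctsb probe set and of Ctse alone leave out 0.

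The aspartic proteases Ctsd and Ctse differed in brightness and in profile. Ctsd encodes the main aspartic protease of lysosomes, whose loss causes neuronal ceroid lipofuscinosis. It gave 7028, 7384 and 4866 in Dap12-deficient cultures, against 5906, 9123 and 5760.0 in wild-type cultures, a log2 difference of -0.10 (SE 0.23, 95% interval -0.61 to 0.41, limma adjusted p = 0.903). Wild-type array 2 was the highest and Dap12-deficient array 3 the lowest, as for Ctsb, Ctsl and Ctss. Ctse encodes an endosomal aspartic protease of immune and gastric cells. Its brighter probe set gave 82.8, 83.2 and 98.7 in Dap12-deficient cultures, against 161, 120.0 and 108 in wild-type cultures. All 3 Dap12-deficient arrays lay below all wild-type arrays. The log2 difference was -0.47 (SE 0.21, 95% interval -0.92 to -0.01, unadjusted p = 0.0450, adjusted p = 0.463), lower in 3 of 3 arrays. The dim second probe set of Ctse, left out of the test, gave 8.72, 16.2 and 11.7 in Dap12-deficient cultures, against 0.222, 7.36 and 5.02 in wild-type cultures, so that its order of the groups was the opposite. With no filter its log2 difference was 0.49 (SE 0.19, unadjusted p = 0.0277, limma adjusted p = 0.546).

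Cst3, the cystatin C gene, had a lower mean in Dap12-deficient cultures that did not pass the test. Its only probe set gave 4036, 5472 and 4515 in Dap12-deficient cultures, against 5366, 7411 and 5432 in wild-type cultures. Each of the 3 Dap12-deficient arrays lay below the wild-type mean, but array 2 lay above wild-type arrays 1 and 3 by a narrow margin. Signals averaged 4674 ± 731 in Dap12-deficient cultures and 6070 ± 1162 in wild-type cultures (SD, n = 3 each). The fitted log2 difference was -0.37 (SE 0.19, 95% interval -0.80 to 0.05, limma adjusted p = 0.527), and it was -0.22 without wild-type replicate 2. By rank the groups did not overlap. Cst3 stood at ranks 252, 150 and 148 on Dap12-deficient arrays 1, 2 and 3, against 127, 85 and 97 on wild-type arrays. Ranks did not overlap for 3 of the 20 member probe sets (Cst3, Ctse and 1 probe set of Ctsz), against 15.7% of all tested, so a gap of this kind was no rarer in the whole table. In bulk cultures, fewer cells of a type and less RNA per cell cannot be told apart. Of 9 astrocyte marker genes, a cell type that also secretes cystatin C, 0 were lower and 9 higher, with 0 past the threshold. Of all 12875 genes tested, 5820 were higher. Astrocyte marker signals summed to 768, 463 and 1468 on Dap12-deficient arrays 1, 2 and 3, against 628, 453 and 606 on wild-type arrays. None of these sums was 0. By their brightest probe sets, Slc1a2 and Slc1a3 were higher on every Dap12-deficient array than on every wild-type array. Gfap, Gja1 and Aqp4 were lower on Dap12-deficient array 2 than on every wild-type array. The part of the astrocyte markers in the Cst3 values was not tested.

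Ctsb, Ctsl, Ctss, Ctsc and Ctsd varied more between the arrays of a group than between the groups. They were set together for their like profiles after the data were seen, and all 5 had their highest signal on wild-type array 2 and their lowest on Dap12-deficient array 3. Only these arrays have a single number in the title, and its part in the profiles was not tested. The brightest probe set of Ctsz had the same highest and lowest arrays, but on Dap12-deficient array 1 it lay below all wild-type arrays, where the 5 genes did not. Over these 5 genes the highest array exceeded the lowest by 1.55 to 1.88 times. The highest array exceeded the lowest by 1.46 to 1.57 times within Dap12-deficient cultures and by 1.29 to 1.59 times within wild-type cultures, while the ratio of the group means, Dap12-deficient over wild-type, lay between 0.927 and 0.980. Pearson's r of log2 signal over the 6 arrays was 0.94 to 0.98 among the 10 pairs of these genes, and Spearman's rho 0.89 to 1. The points are the same 6 arrays, with their scaling and cell make-up in common, and the genes were grouped by this likeness, so this is a description. The median of 250 other probe sets with mean signals between 4000 and 10000, a range chosen after the data were seen, followed the same course. It stood at 0.05, 0.11 and -0.25 on Dap12-deficient arrays 1, 2 and 3 relative to the mean of all arrays on the log2 scale, against -0.04, 0.26 and -0.10 on wild-type arrays. Their median log2 difference was -0.08, with 184 of 250 below 0, close to the values of the 5 cathepsins. Of the 250, 13 had a difference below that of Cst3 and 33 below that of the brightest probe set of Ctsz.

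**Figure D3:**
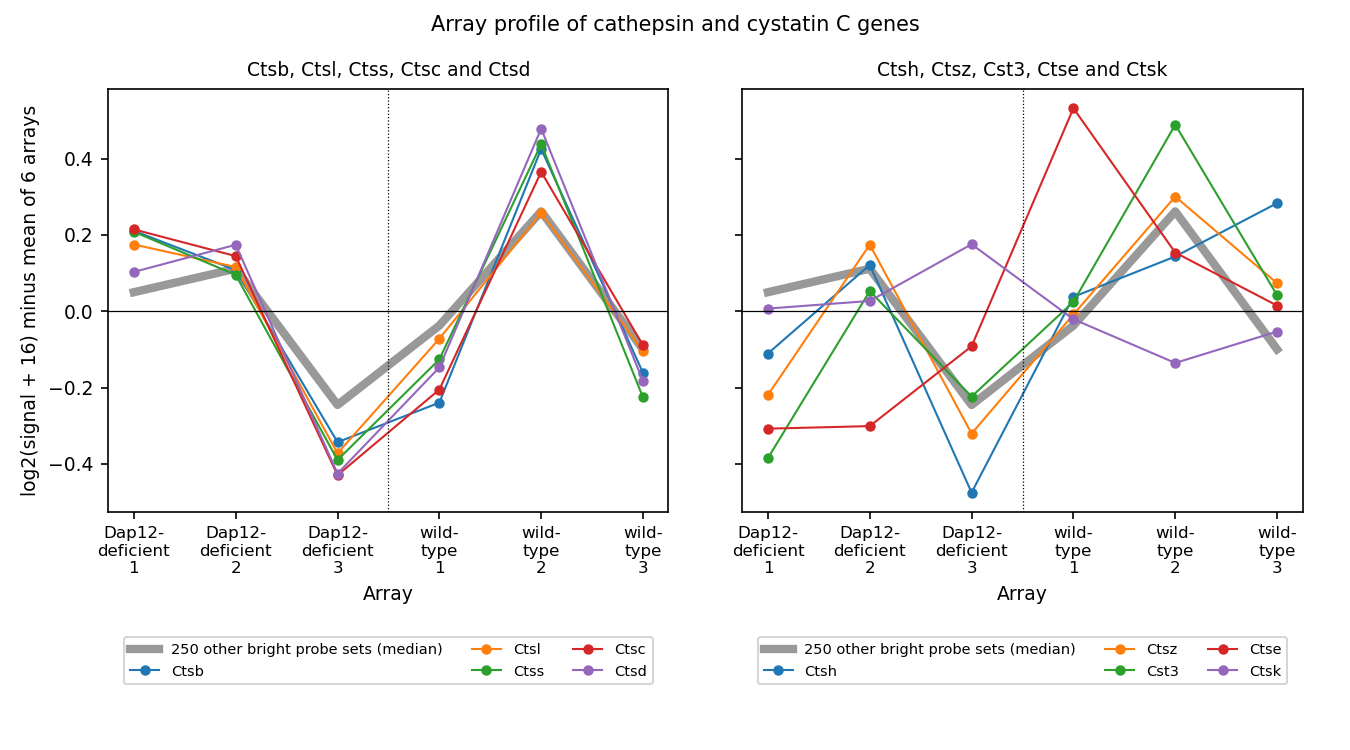
Log2(signal + 16) of the brightest probe set of each gene minus its mean over the 6 arrays, by array, with Dap12-deficient arrays on the left of each panel. The grey line is the median of 250 other bright probe sets, and Ctsb, Ctsl, Ctss, Ctsc and Ctsd follow it while Cst3 leaves it on Dap12-deficient array 1.

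The other genes followed these 5 less closely. Pearson's r with the 5 genes was 0.40 to 0.57 for Ctsh, 0.58 to 0.74 for Ctsz and 0.41 to 0.61 for Cst3, over 6 arrays. It was -0.28 to -0.10 for Ctse and -0.75 to -0.65 for Ctsk, both dim. Cst3 and Ctsz were closer to each other, with r = 0.90 and rho = 0.94. With only 6 arrays these values are rough and carry no test.

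The signal of Cst3 relative to 7 cathepsins was lowest on Dap12-deficient array 1. Ratios were taken within each array and set against their mean in wild-type cultures, since probe sets of different genes do not share a scale. Relative to Ctsb the log2 ratio of Cst3 stood at -0.77, -0.23 and -0.06 on Dap12-deficient arrays 1, 2 and 3, against 0.09, -0.11 and 0.03 on wild-type arrays. Relative to Ctss it stood at -0.75, -0.20 and 0.01 in Dap12-deficient cultures, against -0.01, -0.11 and 0.11 in wild-type cultures. Dap12-deficient arrays 1 and 2 lay below all wild-type arrays in both ratios, and array 3 lay among them. For Ctsl, Ctsc and Ctsd the mean log2 ratio was lower in Dap12-deficient cultures by -0.32, -0.32 and -0.27, again with array 1 the lowest and the groups overlapping. Relative to Ctsz and Ctsh the difference was smaller, at -0.13 and -0.06. The size of these differences rests on Dap12-deficient array 1, and no test was made of them.

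**Figure D4:**
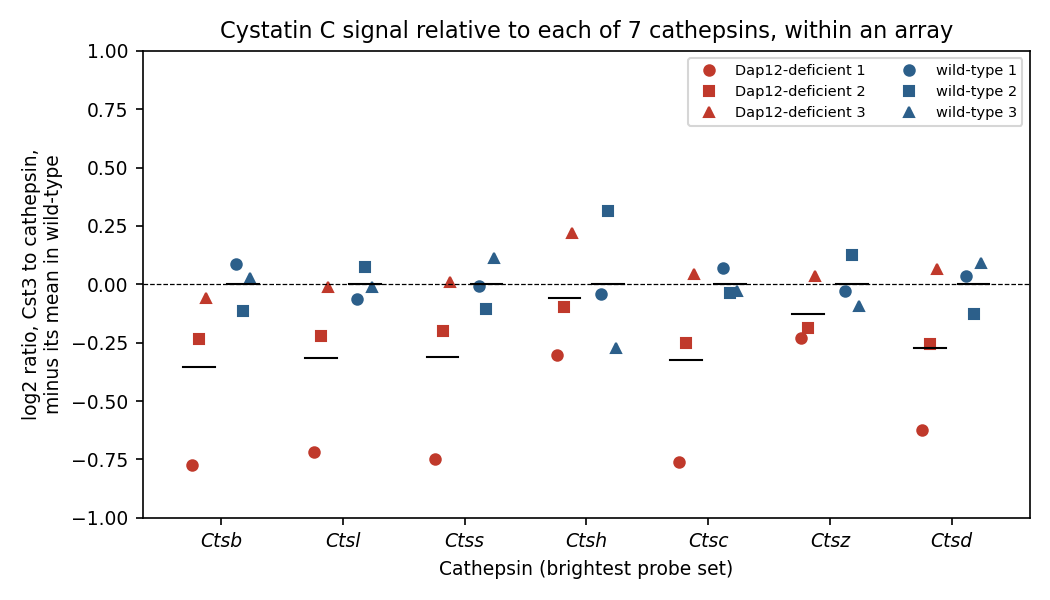
Log2 ratio of the Cst3 signal to that of each of 7 cathepsins within an array, minus the mean of that ratio in wild-type cultures, for 3 Dap12-deficient and 3 wild-type arrays, with bars at the group means. Dap12-deficient array 1 is the lowest in all 7 ratios, and the groups overlap in each.

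Relatives of these genes were taken by their brightest probe set. Of 5 other cathepsin genes 3 were tested, and 0 passed. Ctsa, a serine carboxypeptidase that protects other lysosomal enzymes, had a log2 difference of -0.12 by its brightest probe set, and the cysteine proteases Ctso and Ctsf had -0.17 and -0.30. A dim second probe set of Ctsa gave 81.9, 62.7 and 69.8 in Dap12-deficient cultures, against 28.8, 44.9 and 25.7 in wild-type cultures, with no overlap. Its log2 difference was 0.85 (SE 0.21, unadjusted p = 0.00224, limma adjusted p = 0.293), opposite in sign to that of the brightest. Of 8 cathepsin genes of the mouse placenta, which lie with Ctsl on chromosome 13, 0 passed the filter, and the highest of their signals on any array was 10.2. Of 19 other cystatin and stefin genes 2 were tested. Cstb, an inhibitor of cysteine cathepsins inside cells, gave 6897, 7335 and 4809 in Dap12-deficient cultures, against 5829, 8221 and 5524 in wild-type cultures, and a log2 difference of -0.04 (SE 0.22, adjusted p = 0.963). It shared the profile of Ctsb and Ctss, while a second probe set of Cstb (log2 difference 0.02) was lowest on Dap12-deficient array 1 and highest on Dap12-deficient array 3. Cst7, which encodes cystatin F, an inhibitor of cathepsin C and related proteases in immune cells, stood apart from Cst3 and Cstb in the size of its difference. It gave 396, 808 and 443 in Dap12-deficient cultures, against 1281, 1697 and 986 in wild-type cultures, with no overlap. Such a gap was seen for 16.5% of all tested probe sets. The log2 difference of Cst7 was -1.28 (SE 0.29, limma adjusted p = 0.293). Its adjusted p was 0.0308 without Dap12-deficient replicate 2, a fit in which 172 probe sets of the whole table passed. With any other array left out it lay between 0.279 and 0.693.

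Genes that deliver and mature lysosomal proteases lay on both sides of 0. Of 19 listed genes 18 were tested, 0 passed, 8 had log2 differences below 0 and 10 above, and the median was 0.08. Gnptab, a subunit of the enzyme that makes the mannose 6-phosphate tag, gave 249, 253 and 209 in Dap12-deficient cultures, against 292, 344 and 357 in wild-type cultures. Its log2 difference was -0.46 (SE 0.19, adjusted p = 0.438), with no overlap. The 2 dimmer probe sets of Gnptab had -0.27 and -0.13, with the groups overlapping. Tfec, a transcription factor of the TFEB family, gave 272, 245 and 266 in Dap12-deficient cultures, against 174, 202 and 193 in wild-type cultures, a log2 difference of 0.43 (SE 0.18, adjusted p = 0.444), again with no overlap. The sorting receptor Sort1 had a log2 difference of -0.32 (adjusted p = 0.565). By that probe set Sort1 was lower on every Dap12-deficient array than on every wild-type array, while its 2 dimmer ones (log2 differences of -0.29 and -0.03) overlapped between the groups.

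MHC class II genes, whose invariant chain Cd74 is cut by cathepsin S, were dim. Of 8 listed genes 7 were tested and 0 passed, with 4 below 0 and 3 above. The class II chain H2-Aa gave 3.69, 6.32 and 10.1 in Dap12-deficient cultures, against 29.1, 22.6 and 20.5 in wild-type cultures, a log2 difference of -0.82 (SE 0.19, adjusted p = 0.293) with no overlap. H2-Ab1 had a log2 difference of -0.82 (SE 0.29, adjusted p = 0.373). Cd74 gave 24.6, 37.0 and 26.4 in Dap12-deficient cultures, against 36.5, 56.8 and 42.2 in wild-type cultures, a log2 difference of -0.43 (SE 0.21, adjusted p = 0.499). Arrays of Cd74 overlapped by a narrow margin.

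The labels and cell types were checked on the same arrays. Tyrobp gave 125, 96.4 and 96.2 in Dap12-deficient cultures, against 5584, 7271 and 5396 in wild-type cultures, a log2 difference of -5.64 (limma adjusted p = 8.14e-07). Of 10 microglia markers 9 had probe sets, all were tested and none was at 0. Their summed signal ranged from 12558 to 18273 in Dap12-deficient cultures and from 14886 to 21408 in wild-type cultures, most of it from Csf1r and Fcrls. Of the 9, 8 had log2 differences below 0 and 1 above, with a median of -0.28. Oligodendrocyte markers (7 of 7 tested genes below 0, median log2 difference -1.35) summed to 1437 to 6389 in Dap12-deficient cultures and 5323 to 8488 in wild-type cultures. Neuron markers summed to 299 to 403 in Dap12-deficient cultures and 384 to 495 in wild-type cultures, and fibroblast markers (5 of 5 tested genes above 0, median log2 difference 0.29) to 101 to 174 in Dap12-deficient cultures and 73.9 to 115 in wild-type cultures. Border macrophage and dendritic cell markers summed to 4035 to 4822 in Dap12-deficient cultures and 4369 to 4801 in wild-type cultures, and endothelial markers to 59.6 to 83.3 in Dap12-deficient cultures and 64.01 to 88.9 in wild-type cultures. In each of these lists the summed signals of the groups overlapped and 0 genes passed. For oligodendrocyte markers the overlap came from Dap12-deficient array 1 (6389), while arrays 2 and 3 summed to 2143 and 1437. All 7 tested oligodendrocyte genes had an unadjusted limma p under 0.05, against 10.7% of all probe sets tested. Among border macrophage markers, Folr2 (log2 difference -0.78) and Mrc1 (0.31) did not overlap between the groups, in opposite directions. For the Y-linked genes Eif2s3y, Kdm5d and Uty all 3 Dap12-deficient arrays lay below every wild-type array, with log2 differences of -2.22, -1.23 and -1.01 (0 passed). The part of cell make-up and of sex in the values of the cathepsins was not tested.

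The genes most like each member in array profile were taken among 12865 other genes by Pearson's r over 6 arrays. Ctss was closest to Csf1r, the receptor that microglia need to survive (r = 0.99), and to the reductase Akr1a1 (r = 0.99). Ctsd was closest to Apoe, the main lipid carrier of the brain (r = 0.998), and to Snx4. Ctsl was closest to Uggt1 and to Lyz1, which encodes a lysozyme, Ctsc to Lap3 and Acod1, and Ctsb to Wdr92 and the ribosomal protein gene Rps3. Cst3 was closest to Hes6 and Ywhab, Ctsz to Prss36 and P4hb, and Ctsh to Arel1 and Csnk1e. Ctse was closest to Psmg2 and Psme4, and Ctsk to Pde1a and Slc25a53. All these r were at least 0.985, and between 21 and 70 of the 12865 genes exceeded 0.95 for each member. The named genes are the highest of 12865 values over only 6 arrays, so these pairs are descriptions and carry no test. Ctsb, Ctsl, Ctss, Ctsc and Ctsd also followed the median of 250 other bright probe sets, so their likeness to the named genes is not particular to those genes.

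On chromosome 7, which carries Tyrobp, lie 2 of the 10 genes. In the order of protein-coding genes of GRCm38.p6, 553 genes lie between Tyrobp and Ctsc and 1345 between Tyrobp and Ctsd. Neither differed between the groups beyond the spread, as given above.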

How the data were processed

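Per the labels' protocols, Trizol and RNeasy served to extract RNA, which was biotin-labelled over a pair of amplification cycles. The deposited values are intensities on a linear scale for 45101 probe sets and 6 arrays. GCOS is the software named in the submitters' processing notes, with no version. The sources used here do not give its algorithm or settings, and detection calls were not used. Without the lowest and highest 2% of probe sets, the mean intensity was 100.0 on every array, so the authors had scaled the arrays to 1 target. Median signals were 14.5 to 16.4 on Dap12-deficient and 11.9 to 14.0 on wild-type arrays. Precision is limited by the number of arrays, and no sequencing depth applies.

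Labels gave the groups, and replicates were numbered by order of deposit, which pairs nothing. After 64 control probe sets were left out, the platform annotation gave 1 symbol for 34945, several for 932 and none for 9160, and only those with 1 were named. Signals were converted to log2 with a pseudocount of 16, a scale that understates differences of dim genes. Probe sets whose mean reached the 40th percentile (8.51) were tested, 27022 in all. The test was limma 3.58.1 in R 4.3.3 (lmFit, eBayes with trend), two-sided and without covariates, with Benjamini-Hochberg adjustment over all tested probe sets. No probe set had a value shared by a pair of arrays.

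Alternatives changed the pseudocount (1 or 64), the normalization (quantile, or 1 median for all arrays), the filter (none, or the 60th percentile) and the trend (none), added a term for titles with joined numbers, or left out an array. Members and lists were chosen with earlier results of these data known. Named genes were Tyrobp, all members, the 3 genes of each list with the smallest p, every gene of lists with at most 4 tested, and the 2 genes most like each member. Simulated data for this comparison (10 runs over 27022 probe sets, 200 of them changed) returned 29.2% of log2 changes of 1, 66.8% of 1.5, 88% of 2 and 95% of 3. False calls made up 4.52%. Noise was drawn for each probe set apart, whereas probe sets of the real arrays share deviations. No log2 change under 1 was simulated, and every member difference was smaller than that. Plots used matplotlib 3.10.9 in Python 3.11.15.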

Additional observations from a re-analysis of the deposited data

How the results depend on the processing

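With 3 arrays a group, the count of member probe sets past the threshold was 0 with signals as deposited and in all 14 alternatives, while the count over all probe sets, 2, was 5 with each array scaled to the same median and 2 to 172 when an array was left out (172 without Dap12-deficient replicate 2, 15 without replicate 1). It was 2 or 3 otherwise. Cst3, all probe sets of Ctsz, the brighter one of Ctse, the brightest of Ctsh and the dimmest of Ctsb and Ctsl kept their direction in all 14, while the dim one of Ctse, fitted with no filter, had 0.49. Cst3 ranged from -0.62 to -0.29 over other alternatives and from -0.49 to -0.22 with an array left out, and its smallest adjusted p was 0.256. Values near 0 changed sign, and so did some further from 0. Among these were Ctsf (-0.30), the second Ctsh probe set (-0.16) and the brighter of the dim Ctsc ones (0.20). Without Dap12-deficient replicate 3 or wild-type replicate 2, the log2 differences were 0.15 and 0.19 for Ctsb, 0.12 and 0.06 for Ctsl, 0.12 and 0.15 for Ctss, 0.16 and 0.12 for Ctsc, 0.09 and 0.12 for Ctsd, 0.15 and 0.14 for Cstb and 0.25 and 0.14 for the third Ctsb probe set. With an array left out, the ranges were -0.14 to 0.19 for the first, -0.14 to 0.34 for the second, -0.26 to 0.25 for the third and -0.070 to 0.16 for the Ctsb probe set next to last in brightness, -0.16 to 0.12 for Ctsl, -0.18 to 0.15 for Ctss, -0.27 to 0.047 for the second Ctsh probe set, -0.22 to 0.12 for Ctsd, and -0.17 to 0.16, -0.0052 to 0.44 and -0.16 to 0.27 for the Ctsc probe sets. Ctsf ranged from -0.55 to 0.19 (without Dap12-deficient replicate 1), Ctsa from -0.24 to 0.014 (without wild-type replicate 2) and Cstb from -0.16 to 0.15. Scaling to the same median gave -0.21 and -0.22 for the second Ctsb probe set and the one next to last, -0.031 and -0.14 for the dim Ctsc ones and -0.0031 for Ctsk, whose value it moved with the median of all probe sets. Quantile normalization gave 0.050 for the first Ctsb probe set. The cause of the sign changes was not tested. Of other named genes, 6 values that did not pass with signals as deposited passed the threshold in an alternative. They were Cst7 (limma adjusted p = 0.0308) and Myrf without Dap12-deficient replicate 2, Mobp without replicate 1, and Eif2s3y without either or with a common median. Tyrobp, which passed with signals as deposited, is not among them. No paired analysis was possible because the labels give no replicate numbers shared by the groups.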
